A study of Homo sapiens with 12 samples.

Results

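The human keratin gene family was examined in peak tables from ATAC-seq, an assay in which a transposase cuts and tags accessible DNA. The family was taken as every protein-coding RefSeq gene on GRCh38.p14 whose symbol is KRT, digits and at most 1 letter. This gave 55 of 20037 protein-coding genes, 27 on chromosome 12 and 28 on chromosome 17. By textbook site of expression, 29 were placed on epithelial lists, 17 on a hair shaft list and 9 on a list of the inner root sheath and companion layer of the hair follicle. The samples were 2 established lines of human oesophageal squamous cell carcinoma (ESCC), KYSE150 and KYSE510, each as control cells and as cells in which HCP5, a long non-coding RNA, was silenced. All were grown in RPMI-1640 with 10% FBS, and each of the 4 groups had 3 libraries, 12 in all. The labels do not say how HCP5 was silenced, what the control cells received, or whether the libraries of a group came from separate cultures. The p-values below therefore measure only the spread between these libraries, which may be technical.

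Keratins form the intermediate filaments of epithelial cells, and each filament pairs a type I with a type II chain. Type II genes and KRT18 lie together on chromosome 12, and the other type I genes lie on chromosome 17. In the stratified lining of the oesophagus, KRT5 and KRT14 mark the basal layer, KRT4 and KRT13 the layers above it, and KRT6, KRT16 and KRT17 appear in wounding and in tumours. KRT8, KRT18 and KRT19 are chains of simple epithelia, KRT1 and KRT10 of the epidermis, and the hair keratins of the hair fibre.

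Promoter windows were compared with the peaks for the keratins that had such a window. The RefSeq table held a promoter window, from 250 bases before to 50 after the start, for 34 of the 55 keratins, all on the minus strand. Where a gene had several windows, the first listed was used. Only 6 of these 34 windows overlapped a peak in any library, and 2 did so in all 12. The 2 were KRT5, the basal type II chain (chr12:52520345-52520644), and KRT8, the simple epithelial type II chain (chr12:52926420-52926719). The KRT8 window lies inside the gene's RefSeq span (chr12:52897191-52949860), away from its high-coordinate end, so it may not be the gene's only start. KRT75, a companion layer chain (chr12:52434322-52434621), is shown as a window with a peak in 5 KYSE510 libraries and no KYSE150 library. KRT34, a hair shaft chain (chr17:41382257-41382556), is shown because its peak lay inside the gene and not at this window. KRT10, an epidermal chain (chr17:40822565-40822864), is shown as a window of a gene without any peak. The sequences are from RefSeq on GRCh38.p14, minus strand, 5′ to 3′, and capitals mark a match on either strand to one of the searched motifs. Those were TATAAA for the TATA box, TGANTCA for an AP-1 site, CCAAT for the CCAAT box and GGGCGG for the GC box.

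KRT5: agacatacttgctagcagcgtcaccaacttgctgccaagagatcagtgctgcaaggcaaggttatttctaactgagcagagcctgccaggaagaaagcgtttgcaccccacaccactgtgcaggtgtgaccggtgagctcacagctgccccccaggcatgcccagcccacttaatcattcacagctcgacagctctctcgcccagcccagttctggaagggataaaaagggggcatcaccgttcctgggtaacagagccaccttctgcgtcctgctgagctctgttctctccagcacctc
KRT8: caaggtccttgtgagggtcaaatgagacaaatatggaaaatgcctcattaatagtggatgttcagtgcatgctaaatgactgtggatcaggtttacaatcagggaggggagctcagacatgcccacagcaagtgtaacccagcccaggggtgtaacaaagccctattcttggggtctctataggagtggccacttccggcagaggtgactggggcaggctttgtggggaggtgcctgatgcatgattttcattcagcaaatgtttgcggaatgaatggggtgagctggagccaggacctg
KRT75: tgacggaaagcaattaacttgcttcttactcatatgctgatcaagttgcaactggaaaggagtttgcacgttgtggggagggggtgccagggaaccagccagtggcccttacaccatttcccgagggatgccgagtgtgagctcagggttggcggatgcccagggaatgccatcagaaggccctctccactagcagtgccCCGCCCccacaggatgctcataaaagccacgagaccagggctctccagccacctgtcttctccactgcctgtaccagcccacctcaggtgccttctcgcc
KRT34: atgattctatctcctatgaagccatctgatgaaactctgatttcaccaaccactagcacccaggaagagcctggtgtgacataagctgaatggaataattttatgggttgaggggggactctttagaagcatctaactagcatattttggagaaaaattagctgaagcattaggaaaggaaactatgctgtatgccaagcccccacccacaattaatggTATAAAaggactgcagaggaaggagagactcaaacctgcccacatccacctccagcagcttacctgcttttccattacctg
KRT10: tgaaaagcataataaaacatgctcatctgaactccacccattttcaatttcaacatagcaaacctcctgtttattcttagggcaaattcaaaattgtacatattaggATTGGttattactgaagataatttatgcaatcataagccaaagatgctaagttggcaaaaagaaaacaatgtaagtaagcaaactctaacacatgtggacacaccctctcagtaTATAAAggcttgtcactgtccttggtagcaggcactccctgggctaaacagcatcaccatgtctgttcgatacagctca

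TATAAA stood in 20 of the 34 keratin windows (58.8%), against 9.63% of all 15843 promoters in the table. The hair shaft windows held it in 10 of 14, the root sheath and companion layer windows in 6 of 8 and the epithelial windows in 4 of 12. CCAAT was in 17 keratin windows (50.0%, against 36.4% of all promoters) and GGGCGG in 6 (17.6% against 58.5%). TGANTCA was in none of the 34 and in 5.75% of all promoters. The median GC content was 45.7% in keratin windows and 62.7% in all windows. The windows of KRT5 and KRT8, the only ones with a peak in all 12 libraries, held none of the searched letters, and that of KRT75 held GGGCGG. A match of letters describes the window and is no evidence of a bound factor. A peak in all 6 libraries of a line covered 2 of 34 keratin windows (5.88%) in each line, against 5699 of the 15843 in KYSE150 and 6850 (43.2%) in KYSE510. The 21 keratins without a window included KRT7, KRT15, KRT16, KRT18, KRT19, KRT72, KRT80 and KRT86, which had a peak within 3 kb in all 12 libraries. Windows were listed for 14 of 17 hair shaft keratins, 12 of 29 epithelial keratins and no stress keratin. The shares in this paragraph thus describe the listed windows and not the family.

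Each value given for a gene below is the height of its tallest peak within 3 kb of the gene's span, as deposited (the pileup, a whole number at 1 position), or 0 where no peak of height 3 or more lay there. Heights were not normalised between libraries, so tests used the rank of a gene among all protein-coding genes of its own library. KYSE150 libraries held 547125 to 630780 deposited peaks, of which 52869 to 63295 reached height 3. KYSE510 libraries held 115868 to 135948, of which 104208 to 123109 did. The depth of the libraries is unknown from these tables. A peak was found at 71.6 to 75.4% of protein-coding genes in KYSE150 libraries and at 83.1 to 85.1% in KYSE510 libraries. At HCP5 itself the tallest heights were 0, 0 and 3 in control and 0, 3 and 4 in silenced KYSE150 libraries, and 16, 17 and 8 and 23, 9 and 20 in KYSE510. Those values are of DNA and do not check the loss of the RNA. Of 6 squamous markers (TP63, KRT5, KRT14, SOX2, DSG3, PKP1), 5 had a peak in all 6 libraries of each line. SOX2 was at 0 in KYSE150 and KRT14 was at 0 in 1 KYSE510 library. Peaks also lay at markers of other cell types in all 6 libraries of either line, at 2 of 5 for fibroblasts, 3 of 4 for endothelium, 3 of 5 for leukocytes and 3 of 4 for melanocytes, so a peak near a gene does not by itself identify a cell type here.

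A peak was found in at least 1 library at 28 of 55 keratins in KYSE150 (50.9%, against 83.9% of all protein-coding genes) and at 37 of 55 in KYSE510 (67.3%, against 91.2%). It was present in all 6 KYSE150 libraries at 14 of 55 keratins (25.5%), against 64% of all protein-coding genes. In KYSE510 it was present at 20 of 55 (36.4%), against 76.2% of all genes. Single libraries had a peak at 18 to 21 keratins in KYSE150 and 25 to 29 in KYSE510. Keratin genes are short, with a median span of 6433 bp against 24115 bp for all genes, and a short gene has a smaller window. Among genes with spans of 3 to 10 kb, a band chosen after the values were seen, 8 of 41 keratins (19.5%) had a peak in all 6 KYSE150 libraries, against 47.5% of all 3755 such genes. In KYSE510 it was 10 of 41 (24.4%) against 60.3%.

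Members were then counted by list. In all 6 KYSE150 libraries a peak was found at 11 of 29 epithelial keratins (37.9%), 2 of 17 hair shaft keratins (11.8%) and 1 of 9 root sheath and companion layer keratins. In KYSE510 the counts were 12 of 29 (41.4%), 6 of 17 (35.3%) and 2 of 9. Of the simple epithelial keratins 4 of 5 were open in each line, all but KRT20. Basal keratins were open in 3 of 3 in KYSE150 and 2 of 3 in KYSE510. Mucosal suprabasal members were open in 1 of 2 and 0 of 2, epidermal members in 1 of 4 and 0 of 4, and corneal members in 0 of 2 in each line. Stress keratins were open in 1 of 5 in KYSE150 and 3 of 5 in KYSE510. By type, 7 of 29 type I and 7 of 26 type II genes were open in all 6 KYSE150 libraries, and 9 of 29 and 11 of 26 in KYSE510. These counts describe the lists and carry no test.

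**Figure D1:**
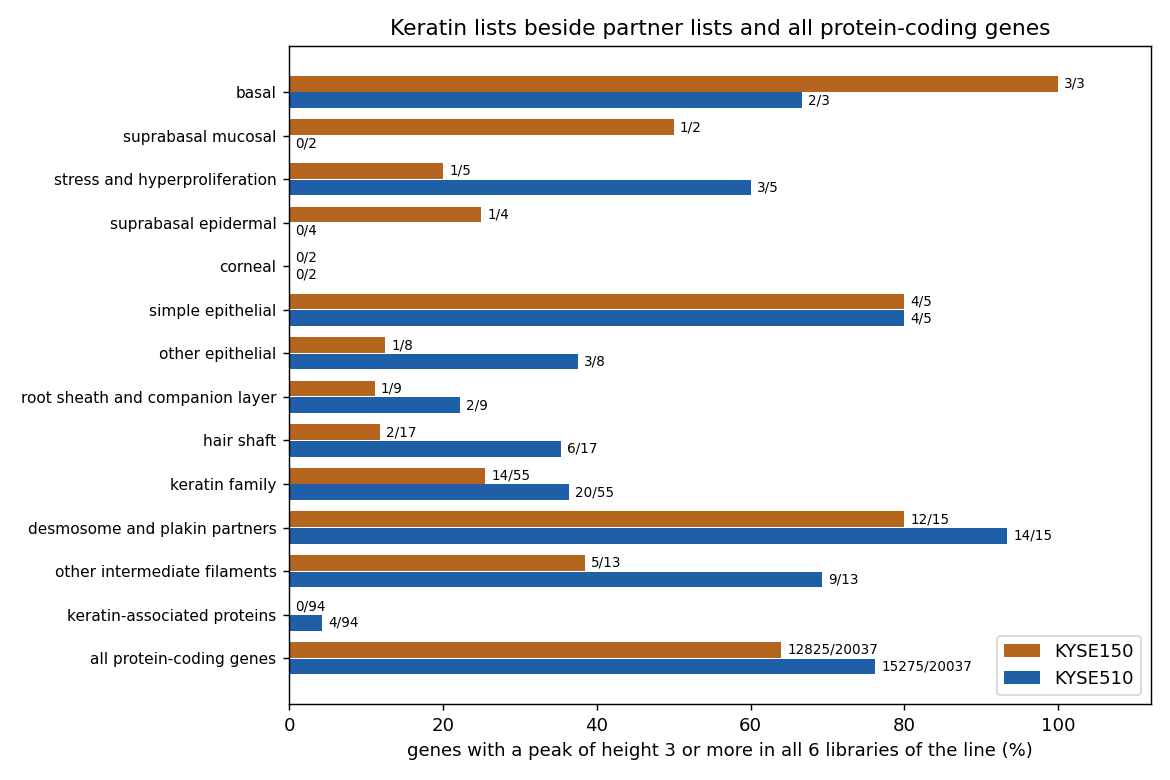
Share of the genes of each list, in percent, with a peak of height 3 or more within 3 kb in all 6 libraries of a line; bars are KYSE150 and KYSE510 and the fraction beside each bar gives the genes counted. The keratin family stands at 14 of 55 and 20 of 55, below all protein-coding genes, while the simple epithelial list stands at 4 of 5 in both lines.

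Keratins open in every library numbered 11. They were KRT5, KRT7, KRT8, KRT15, KRT16, KRT18, KRT19, KRT32, KRT72, KRT80 and KRT86. No peak was found in any library at 17 keratins. The epithelial ones among these were KRT2, KRT9, KRT10, KRT12, KRT20, KRT76 and KRT222. The root sheath ones were KRT26, KRT27, KRT28 and KRT73, and the hair shaft ones KRT31, KRT36, KRT38, KRT81, KRT84 and KRT85. The other 27 keratins had a peak in some libraries only. The minimum height matters for low members. Of 660 values (55 genes in 12 libraries), 283 were above 0, 47 of them at exactly 3 and 33 at 4, while 65 values set to 0 had a peak of height 2.

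**Figure D2:**
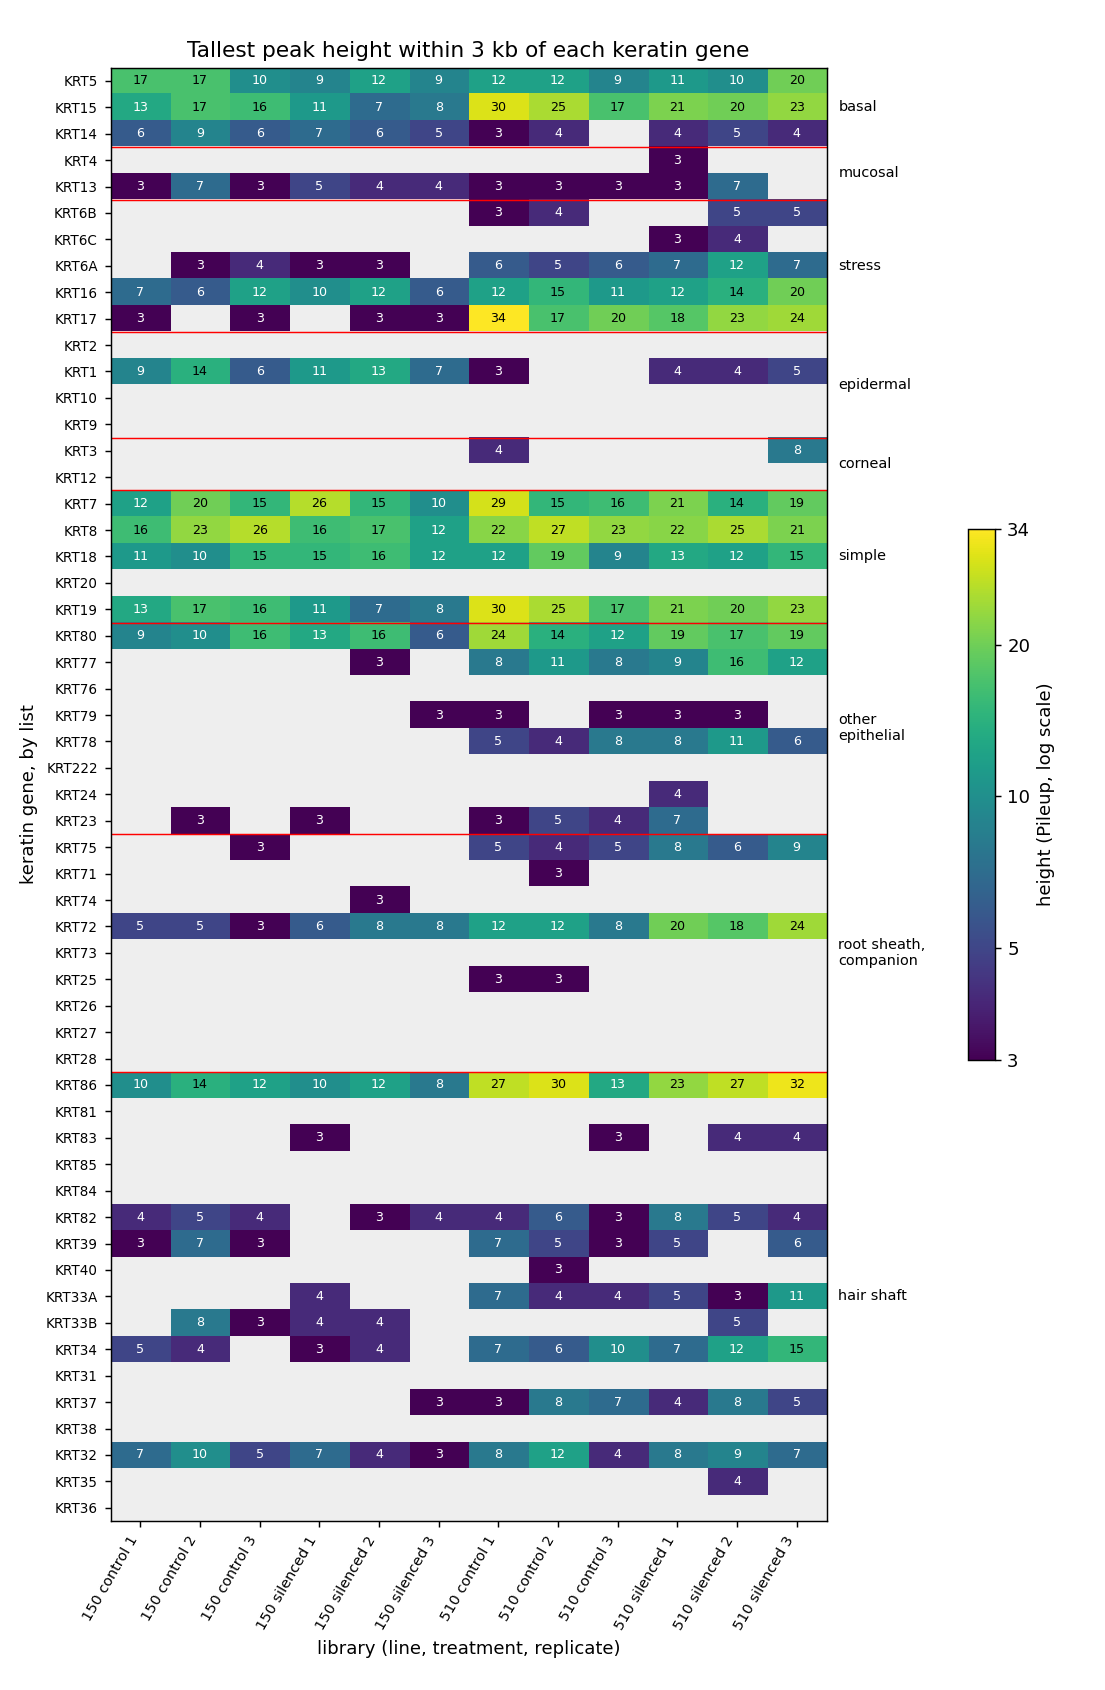
Height of the tallest peak within 3 kb of each of the 55 keratin genes (rows, grouped by list) in each of the 12 libraries (columns, named by line, treatment and replicate), with colour on a log scale and grey for no peak of height 3 or more. KRT8, KRT7, KRT18, KRT19, KRT15, KRT5 and KRT86 are filled across all 12 columns, and KRT17, KRT77 and KRT78 are higher in the KYSE510 than in the KYSE150 columns. The hair shaft rows of KRT31, KRT36, KRT38, KRT81, KRT84 and KRT85 are grey throughout.

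The simple epithelial chains KRT8, KRT7 and KRT18 had the highest mean percentiles of the family in KYSE150. KRT8 had heights of 16, 23 and 26 in KYSE150 control libraries and 16, 17 and 12 in silenced ones, and in KYSE510 heights of 22, 27 and 23 in control and 22, 25 and 21 in silenced libraries. Its mean percentile among all genes was 81.6 ± 6.33 in KYSE150 and 79.7 ± 5.67 in KYSE510 (SD, n = 6 libraries), with 8.33 and 9.17 peaks on average. KRT18, its type I partner, had heights of 11, 10 and 15 in control and 15, 16 and 12 in silenced KYSE150 libraries, and of 12, 19 and 9 and of 13, 12 and 15 in KYSE510. The RefSeq span of KRT8 is 52670 bp long and overlaps that of KRT18, so the regions at chr12:52948695-52949270 and chr12:52949522-52950271 counted for both genes. KRT7, the other simple type II chain, had heights of 12, 20 and 15 in control and 26, 15 and 10 in silenced KYSE150 libraries, and of 29, 15 and 16 and of 21, 14 and 19 in KYSE510. For each of these 3 genes the control and silenced heights overlapped in both lines. The percentiles of KRT18 did not overlap in KYSE150, where the silenced libraries lay above the controls. KRT20, found in gut and urothelium, was at 0 throughout.

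KRT19, a type I chain of simple epithelia, and KRT15, a basal type I chain, lie next to each other and had their tallest peak in 1 shared region between the genes (chr17:41521644-41522610). That region lies 2754 bp above the span of KRT15 and 1007 bp below that of KRT19, so their heights were equal in every library. The heights were 13, 17 and 16 in control and 11, 7 and 8 in silenced KYSE150 libraries, and 30, 25 and 17 in control and 21, 20 and 23 in silenced KYSE510 libraries. All 3 silenced KYSE150 libraries were thus below all 3 controls, whereas the KYSE510 groups overlapped. In all, 15 keratins had a window that overlapped that of another keratin.

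The basal chains KRT5 and KRT14, partners in 1 filament, were not open to the same degree. KRT5 had heights of 17, 17 and 10 in control and 9, 12 and 9 in silenced KYSE150 libraries, and of 12, 12 and 9 and of 11, 10 and 20 in KYSE510. Its main region (chr12:52520257-52520748) covered the whole promoter window printed above. KRT14 had heights of 6, 9 and 6 in control and 7, 6 and 5 in silenced KYSE150 libraries, and of 3, 4 and 0 and of 4, 5 and 4 in KYSE510. The KRT14 region (chr17:41579412-41579941) lay 2338 bp below the gene's span and not within it. KRT14 was thus lower than KRT5 in every library.

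The mucosal suprabasal pair, which marks differentiated oesophageal cells, was low. KRT4 had no peak in any KYSE150 library and 1 peak, of height 3, in KYSE510 silenced replicate 1. KRT13 had heights of 3, 7 and 3 in control and 5, 4 and 4 in silenced KYSE150 libraries, and of 3, 3 and 3 and of 3, 7 and 0 in KYSE510. Most KRT13 values thus stood at or just above the minimum. The epidermal partners differed. KRT10 was at 0 in all 12 libraries, while KRT1 had heights of 9, 14 and 6 in control and 11, 13 and 7 in silenced KYSE150 libraries, and of 3, 0 and 0 and of 4, 4 and 5 in KYSE510. The KRT1 region (chr12:52672250-52672748) lay 1988 bp below the gene's span.

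Of the stress keratins, KRT17 was called between the lines in the test given further on, and KRT6A, KRT6B and KRT16 were not. KRT17 had heights of 3, 0 and 3 in control and 0, 3 and 3 in silenced KYSE150 libraries. In KYSE510 it had heights of 34, 17 and 20 in control and 18, 23 and 24 in silenced libraries, so every KYSE510 library was above every KYSE150 library. The tallest region (chr17:41624311-41625106) overlapped the high-coordinate end of the gene. A second region below the gene (chr17:41618178-41619209) had peaks in 5 KYSE510 libraries, of heights 9, 0 and 8 in control and 10, 13 and 6 in silenced libraries, and in no KYSE150 library. KRT16, the neighbouring type I gene, was open in both lines, with heights of 7, 6 and 12 in control and 10, 12 and 6 in silenced KYSE150 libraries, and of 12, 15 and 11 and of 12, 14 and 20 in KYSE510. KRT6A, a type II partner of both, had heights of 0, 3 and 4 in control and 3, 3 and 0 in silenced KYSE150 libraries, and of 6, 5 and 6 and of 7, 12 and 7 in KYSE510. KRT6B and KRT6C, near-identical copies of KRT6A, were at 0 in KYSE150 and reached 5 and 4 at most in KYSE510. How reads that match several of these copies were placed is not given in the sources used here, so the 3 genes are uncertain relative to each other. The same limit holds for any keratin with a close copy, such as KRT37 and KRT38, whose promoter windows share a long run of bases. Copies of the other keratins, KRT14, KRT16 and KRT17 among them, were not searched for.

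**Figure D3:**
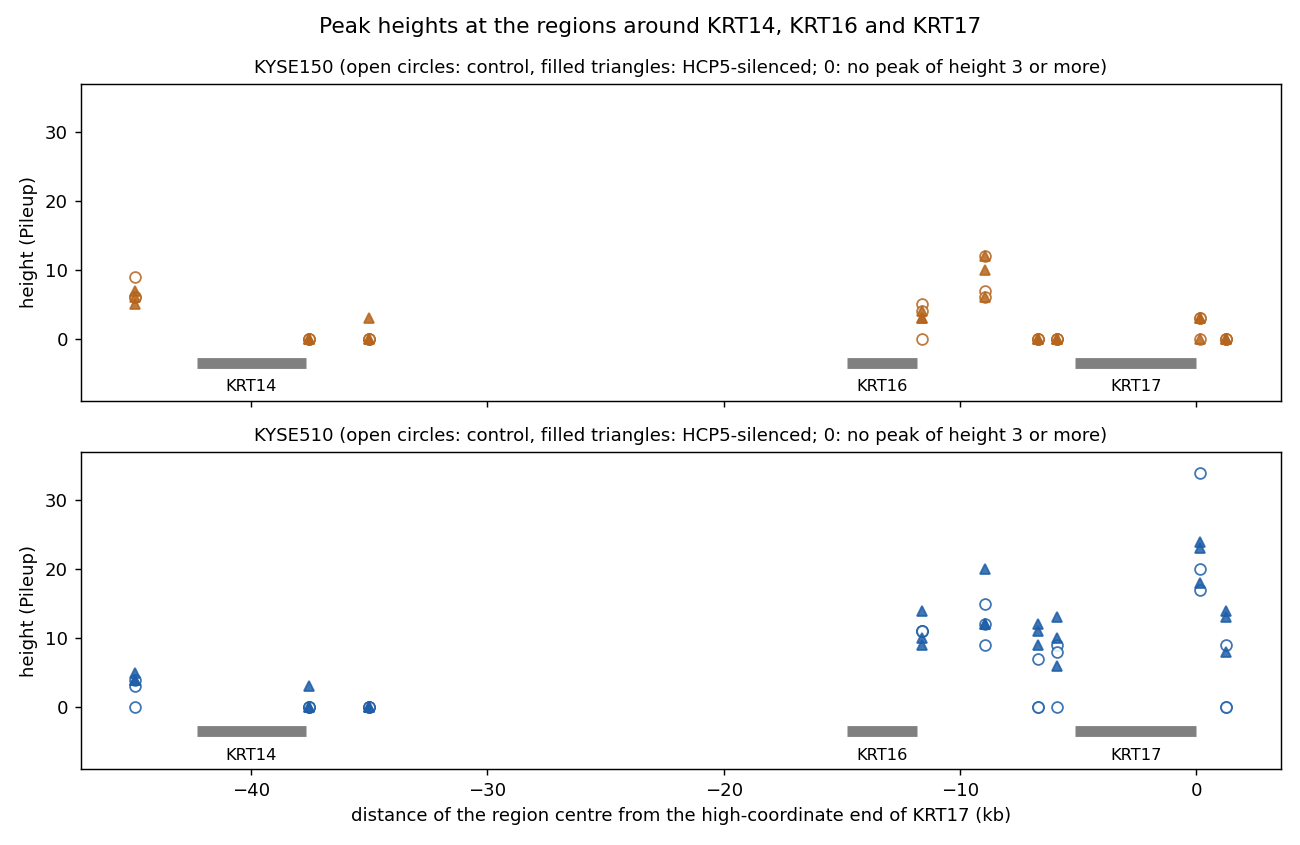
Peak heights at the merged regions around KRT14, KRT16 and KRT17 against the distance of each region's centre from the high-coordinate end of KRT17 in kb, for KYSE150 (top) and KYSE510 (bottom); open circles are control and filled triangles are silenced libraries, 0 is no peak of height 3 or more, and grey bars are the gene spans. The region at KRT17 reaches 17 to 34 in KYSE510 and at most 3 in KYSE150, while the KRT14 region is at 5 to 9 in KYSE150 and at most 5 in KYSE510.

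A few hair keratins were open in these oesophageal cells. KRT86, a type II hair shaft chain, had the highest mean percentile of the family in KYSE510, 80.6 ± 11.1 (SD, n = 6), and 64.3 ± 5.46 in KYSE150. Its heights were 10, 14 and 12 in control and 10, 12 and 8 in silenced KYSE150 libraries, and 27, 30 and 13 and 23, 27 and 32 in KYSE510. The KRT86 region (chr12:52280220-52281398) lay inside a RefSeq span of 34519 bp that also takes in KRT81, a near copy of KRT86 that had no peak within 3 kb, and the 2 copies are uncertain in the same way. KRT32, a type I hair shaft chain, had heights of 7, 10 and 5 in control and 7, 4 and 3 in silenced KYSE150 libraries, and of 8, 12 and 4 and of 8, 9 and 7 in KYSE510. KRT82, KRT33A, KRT34 and KRT37 had a peak in all 6 KYSE510 libraries, with heights of 3 to 8, 3 to 11, 6 to 15 and 3 to 8. In KYSE150 those 4 genes had a peak in 5, 1, 4 and 1 of 6 libraries and none was above 5. KRT72, an inner root sheath chain, had heights of 5, 5 and 3 in control and 6, 8 and 8 in silenced KYSE150 libraries, and of 12, 12 and 8 and of 20, 18 and 24 in KYSE510. Its region (chr12:52582297-52583356) lay 2233 bp below the span of KRT72, and silenced libraries were above control libraries in both lines.

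KYSE510 was then compared with KYSE150 over all 12 libraries. Ranks were turned into normal scores by placing a gene's rank in its library on a standard normal curve. A score unit is 1 SD of that curve. Genes without a peak share 1 tied score, so the scores over all genes spread somewhat less. Scores were compared by limma, with Benjamini-Hochberg adjustment over all 17489 genes tested. Of 55 keratins, 29 had a peak in at least 3 libraries and were tested. Of these, 11 were higher and 5 lower in KYSE510 at a limma adjusted p under 0.05, 55.2% of the keratins tested. Over all genes 41.1% were called, 21.2% higher and 19.9% lower, so a called line difference was common. At an unadjusted limma p under 0.05 there were 18 keratins and 48.7% of all genes. Line and the way each line's libraries were sequenced or called cannot be told apart, and the numbers of deposited peaks given above did not overlap between the lines.

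The change was largest at KRT17, which was 1.52 ± 0.153 score units higher in KYSE510 (SE, limma adjusted p = 1.64e-07). Its mean percentile was 23.8 ± 8.70 in KYSE150 and 77.7 ± 6.17 in KYSE510 (SD, n = 6). KRT77, a type II chain on the epithelial lists but not on the epidermal one, was higher by 1.01 ± 0.141 (adjusted p = 9.54e-06). Its heights were 0, 0 and 0 in control and 0, 3 and 0 in silenced KYSE150 libraries, and 8, 11 and 8 and 9, 16 and 12 in KYSE510, at a region 1370 bp below the gene's span (chr12:52687835-52688256). KRT78, a type II chain of stratified epithelia, was higher by 0.752 ± 0.130 (adjusted p = 0.000108), with no peak in KYSE150 and heights of 5, 4 and 8 in control and 8, 11 and 6 in silenced KYSE510 libraries. These 3 were the only tested keratins whose 6 KYSE510 percentiles all lay above their 6 KYSE150 percentiles, 10.3% of those tested against 11.8% of all genes tested. KRT78, KRT77, KRT75, KRT33A and KRT37 had a peak in at most 1 KYSE150 library and in all 6 KYSE510 libraries. They passed the filter for testing through KYSE510 alone, so their difference follows in part from that filter.

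KRT1 was the keratin with the largest difference in the other direction, at -1.24 ± 0.145 (SE, limma adjusted p = 1.12e-06). Its percentiles ran from 42.1 to 72.7 over the 6 KYSE150 libraries and from 8.02 to 26.5 over the 6 KYSE510 libraries. KRT14 differed by -0.766 ± 0.131 (adjusted p = 9.50e-05), with mean percentiles of 46.8 ± 5.02 and 20.6 ± 6.83. KRT1 and KRT14 were the only tested keratins whose KYSE510 percentiles all lay below those of KYSE150, 6.90% of those tested against 9.27% of all genes tested. Keratins without any peak were not tested, and their shared lowest percentile also stood lower in KYSE510. KRT33B, a hair shaft chain with heights of 0, 8 and 3 in control and 4, 4 and 0 in silenced KYSE150 libraries and 1 peak of height 5 in KYSE510, differed by -0.684 ± 0.191 (adjusted p = 0.00682). KRT33B passed the filter for testing through its KYSE150 libraries, so its difference follows in part from that filter. KRT13 differed by -0.530 ± 0.157 (adjusted p = 0.0104) and KRT18 by -0.371 ± 0.140 (adjusted p = 0.0394). On log2(height + 1), centred on each library's median, KRT33B, KRT13 and KRT18 lost their calls, at -1.71, -1.04 and -0.50 (limma adjusted p = 0.0540, 0.0832 and 0.0504), and KRT34 was not called either. KRT18 heights averaged 13.2 ± 2.48 in KYSE150 and 13.3 ± 3.39 in KYSE510 (SD, n = 6), and its mean percentiles, on which the call was made, were 70.9 ± 8.21 and 57.3 ± 10.5. With a window of 10 kb the KRT13 value turned to 0.247 (limma adjusted p = 0.235).

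The other called differences were of hair follicle chains and of the shared region of KRT15 and KRT19. KRT75 was higher in KYSE510 by 0.565 ± 0.127 (SE, limma adjusted p = 0.00127), with heights of 0, 0 and 3 in control and 0 in all silenced KYSE150 libraries, and 5, 4 and 5 and 8, 6 and 9 in KYSE510. KRT72 was higher by 0.490 ± 0.128 (adjusted p = 0.00421), KRT86 by 0.542 ± 0.152 (adjusted p = 0.00728) and KRT37 by 0.525 ± 0.155 (adjusted p = 0.0101). KRT34 was higher by 0.504 ± 0.172 (adjusted p = 0.0240), and KRT33A passed with an adjusted p of 0.0261. KRT15 and KRT19, through 1 region, were higher by 0.358 ± 0.127 (adjusted p = 0.0285). When each peak counted only for its nearest gene, KRT15 turned to -0.432 (limma adjusted p = 0.0667), while KRT19 was called. When peak numbers were ranked in place of heights, the sign turned at KRT72 (-0.336), KRT86 (-0.273), KRT34 (-0.0505), KRT15 (-0.382) and KRT19 (-0.169). KRT75 turned to -0.0148 with the span alone. By list, 5 epithelial keratins were higher and 4 lower of 18 tested (50%), and 4 hair shaft keratins were higher and 1 lower of 9 (55.6%). Both root sheath and companion layer keratins tested, KRT72 and KRT75, were higher. Over all genes 41.1% were called, 21.2% higher and 19.9% lower. These counts include KRT33A, KRT37, KRT75, KRT77 and KRT78, which passed the filter through KYSE510 alone, and KRT33B, which passed through KYSE150. They thus follow in part from the filter.

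Several chains that mark squamous or simple epithelium did not pass the threshold between the lines. KRT5 differed by -0.366 ± 0.148 (SE, limma adjusted p = 0.0533), a value that passed the threshold in 4 alternatives, among them the fits without KYSE150 control replicate 3 (adjusted p = 0.0161), without KYSE150 silenced replicate 1 (adjusted p = 0.0431) and without KYSE510 silenced replicate 3 (adjusted p = 0.0146). KRT6A was close to the threshold as well (adjusted p = 0.0608) and passed with a height of 5 or more (adjusted p = 0.00227) and without KYSE150 control replicate 3 (adjusted p = 0.0358), with KYSE510 heights of 5 to 12 and KYSE150 heights of 0 to 4. KRT7, KRT8 and KRT16 differed by -0.219 ± 0.163, -0.0811 ± 0.138 and 0.0932 ± 0.143, with adjusted p values of 0.301, 0.673 and 0.637. Ranked by fold enrichment in place of height, KRT7 was called at -0.901 (limma adjusted p = 0.000599) and KRT16 turned sign and was called at -0.555 (adjusted p = 0.0162). Ranked by peak number, KRT8 was called at -0.415 (limma adjusted p = 0.0159) and KRT16 turned to -0.254 (adjusted p = 0.0972). An adjusted p above the threshold does not show that the lines were alike at these genes. Of the 16 called keratins, 5 lost their call when a single library was left out. The calls of KRT15 and KRT19 ended (adjusted p up to 0.0725) without KYSE150 control replicate 1, KYSE150 silenced replicate 2, KYSE510 control replicate 1 or 2, or KYSE510 silenced replicate 3. That of KRT33A ended (up to 0.0889) without KYSE150 silenced replicate 2 or 3, KYSE510 control replicate 1 or KYSE510 silenced replicate 3. That of KRT34 ended (up to 0.0818) without KYSE150 control replicate 3, KYSE150 silenced replicate 3, KYSE510 control replicate 3 or KYSE510 silenced replicate 2 or 3. That of KRT18 ended in 7 of 12 such fits (up to 0.110), those without KYSE150 control replicate 3, KYSE150 silenced replicate 2 or 3, KYSE510 control replicate 1 or 3, or KYSE510 silenced replicate 1 or 2. The other 11 called keratins were called in all 12. Of the 16 called keratins, KRT17 alone kept its call in all 25 alternatives. Only 6 keratins were called when peaks had to overlap the gene's span, namely KRT17, KRT18, KRT33A, KRT33B, KRT78 and KRT86, and 8 were called from control libraries alone.

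**Figure D4:**
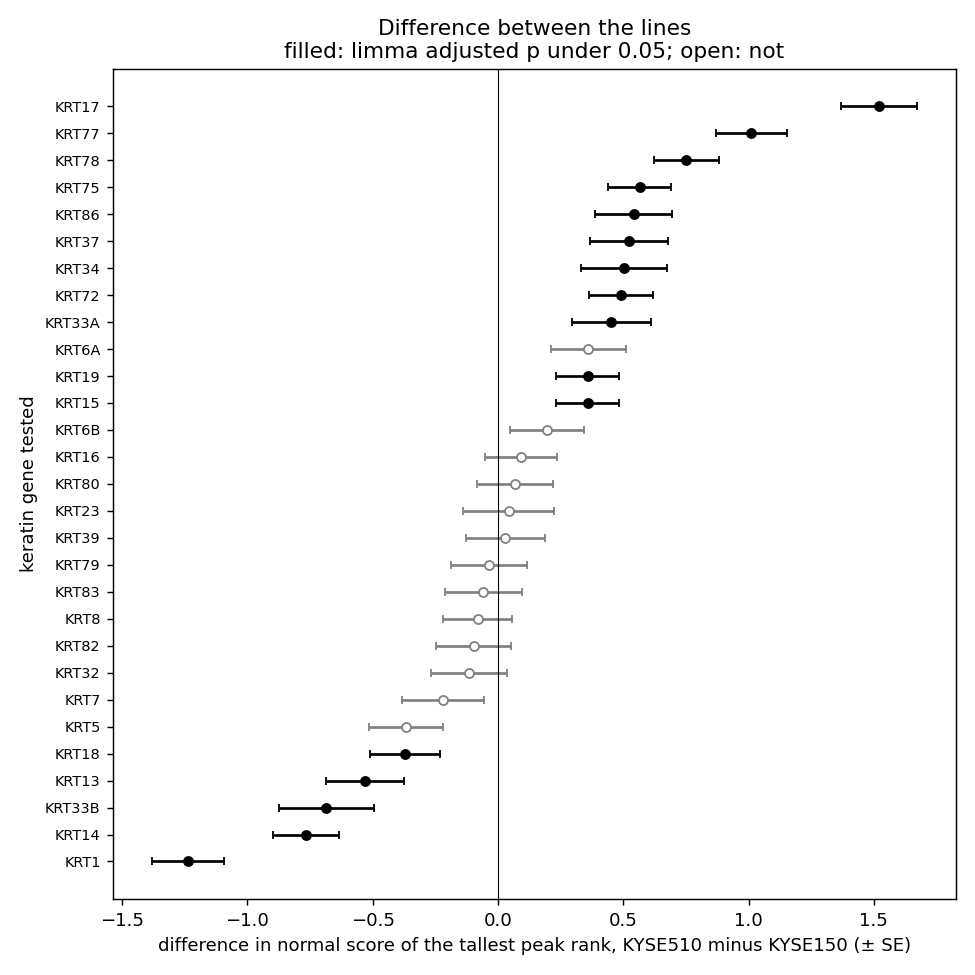
Difference in normal score of the tallest-peak rank, KYSE510 minus KYSE150, for each of the 29 keratins tested, with bars of 1 SE; filled points have a limma adjusted p under 0.05 over all genes. KRT17 lies at 1.52 and KRT1 at -1.24, with 11 filled points above 0 and 5 below.

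Merged regions were counted as well. Peaks of all 12 libraries merged into 117 regions within 3 kb of a keratin, of which 13 (11.1%) were present in all 12 libraries and 43 (36.8%) in 1 library. Over all 290571 regions of the genome the shares were 7.34% and 50.5%. KYSE510 alone held 59 keratin regions (50.4%, against 60.1% of all regions). KYSE150 alone held 14 of the 117 keratin regions, against 34981 of all 290571 regions. Regions present in all 6 KYSE510 libraries and in no KYSE150 library numbered 4 (3.42%, against 3.45% of all regions), and 0 had the reverse pattern (0.285% of all regions). The shares of regions found in KYSE510 alone, in all KYSE510 libraries alone and in KYSE150 alone were thus not above those of all regions. The 4 lay in KRT80 (chr12:52181538-52182108), at the low-coordinate end of KRT7 (chr12:52232626-52233431), near KRT77 (chr12:52687835-52688256) and in KRT78 (chr12:52847404-52848257). The KRT7 region had heights of 17, 11 and 11 in control and 9, 9 and 14 in silenced KYSE510 libraries. It overlaps the pseudogene TMT1AP1 as well. KRT7 also had a region inside the gene (chr12:52243828-52244621) that was open in all 12 libraries.

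Genes that work with keratins were counted the same way, beside 64% of all genes with a peak in all 6 KYSE150 libraries and 76.2% in KYSE510. Desmosome and plakin genes, whose products anchor keratin filaments at cell junctions, had a peak in all 6 libraries at 12 of 15 in KYSE150 and 14 of 15 in KYSE510. Their median span is 45044 bp, against the 6433 bp of keratins, so their windows are wider. Between the lines, PKP1 and DSG2 were higher in KYSE510 (by 0.682 and 0.421) and PKP2 and EVPL lower (-0.807 and -0.497), 4 of 15 tested (26.7%, against 41.1% of all genes). Other intermediate filament genes were open at 5 of 13 and 9 of 13, with 3 higher and 3 lower of 12 tested (50%). VIM, the mesenchymal filament gene, differed by -0.987. Keratin-associated protein genes, which encode matrix proteins of hair and flank the keratins of chromosome 17 in part, were open in all 6 libraries at 0 of 94 in KYSE150 and 4 of 94 in KYSE510. Between the lines 3 were higher and 3 lower of 20 tested (30%). The 3 higher ones all carried KRTAP5 symbols, KRTAP5-11, KRTAP5-10 and KRTAP5-8. KRTAP5-11 was higher in KYSE510 by 2.81 ± 0.144 (SE, limma adjusted p = 1.44e-11), more than any keratin.

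HCP5 silencing was compared with control within each line by the same test. No keratin was called in either line at a limma adjusted p under 0.05, of 20 tested in KYSE150 and 28 in KYSE510. Over all genes 0% were called as well, with 0 of 15231 in KYSE150 and 0 of 17136 in KYSE510. At an unadjusted limma p under 0.05 there were 4 of 20 keratins in KYSE150, of which 2 share 1 region, against 5.27% of all genes, and 2 of 28 in KYSE510 against 6.37% of all genes. Percentiles of the 3 silenced libraries lay wholly above the controls for 2 keratins in KYSE150 (KRT18 and KRT72; 5.61% of all genes) and for 4 in KYSE510 (KRT1, KRT6A, KRT72 and KRT75; 6.19% of all genes). They lay wholly below for 3 in KYSE150 (KRT15, KRT19 and KRT39; 5.07% of all genes) and for 0 in KYSE510 (5.82% of all genes). The median change over the keratins tested was -0.0280 in KYSE150 and 0.146 in KYSE510, beside -0.00484 and -0.00466 over all genes.

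KRT72 was among the keratins with the smallest p in both lines. Its mean percentile went from 48.8 ± 7.45 in control to 75.8 ± 4.54 in silenced KYSE510 libraries (SD, n = 3), a change of 0.737 ± 0.175 score units (SE, limma adjusted p = 0.467). In KYSE150 it went from 35.1 ± 6.52 to 53.3 ± 8.38, a change of 0.472 ± 0.190 (limma adjusted p = 0.932). When the number of peaks per gene was ranked in place of the height, the KYSE150 value was -0.149. The single region below KRT72 gave 1.13 ± 0.369 in KYSE150 (limma adjusted p = 0.896) and 0.899 ± 0.263 in KYSE510 (limma adjusted p = 0.471). The heights of silenced and control libraries at KRT72 did not overlap in either line, yet no value passed the adjustment.

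The other keratins with an unadjusted limma p under 0.05 were KRT39, KRT15 and KRT19 in KYSE150 and KRT1 in KYSE510. KRT39, a hair shaft chain, had a region in all 3 KYSE150 control libraries, of heights 3, 7 and 3, and in no silenced library (chr17:40956700-40957090). That pattern held for 1 of 60 keratin regions in KYSE150 (1.67%), against 880 of all 118796 regions (0.741%). In KYSE510 it held for 0 of 104 keratin regions, against 0.318% of all regions. KRT39 entered the KYSE150 test through the control libraries alone, so a difference follows in part from the filter. Its change was -0.704 ± 0.195 (SE, limma adjusted p = 0.646). The call was made in KYSE150 when peak numbers were ranked (adjusted p = 0.0475) and on log2(height + 0.5), on which the change was -2.94 (adjusted p = 0.0222), a size that depends on the 0.5 added. In KYSE510 the KRT39 heights were 7, 5 and 3 in control and 5, 0 and 6 in silenced libraries, which overlapped. KRT15 and KRT19 changed by -0.440 ± 0.186 in KYSE150 (limma adjusted p = 0.937), with mean percentiles of 74.1 ± 5.68 in control and 58.4 ± 6.92 in silenced libraries (SD, n = 3). Their shared region alone gave -0.669 ± 0.309 (limma adjusted p = 0.896).

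In KYSE510, KRT1 went from a mean percentile of 11.3 ± 5.29 in control to 24.5 ± 1.74 in silenced libraries (SD, n = 3), a change of 0.549 ± 0.178 (SE, limma adjusted p = 0.647). That change rests on a peak of height 4 or 5 in silenced libraries and on 2 control libraries without a peak. KRT1 entered the KYSE510 test through the silenced libraries, so its change follows in part from the filter. KRT75 changed by 0.338 ± 0.166 (limma adjusted p = 0.780). The KRT78 region (chr12:52847404-52848257) had heights of 4, 4 and 6 in control and 8, 11 and 6 in silenced KYSE510 libraries, a change of 0.810 ± 0.343 (limma adjusted p = 0.598). Over regions called in all 6 libraries of a line, 0 of 20 keratin regions in KYSE150 and 0 of 26 in KYSE510 were called, with 0% of all regions called in either line. At an unadjusted limma p under 0.05 there were 1 of 20 and 3 of 26, against 5.52% and 8.06% of all regions.

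**Figure D5:**
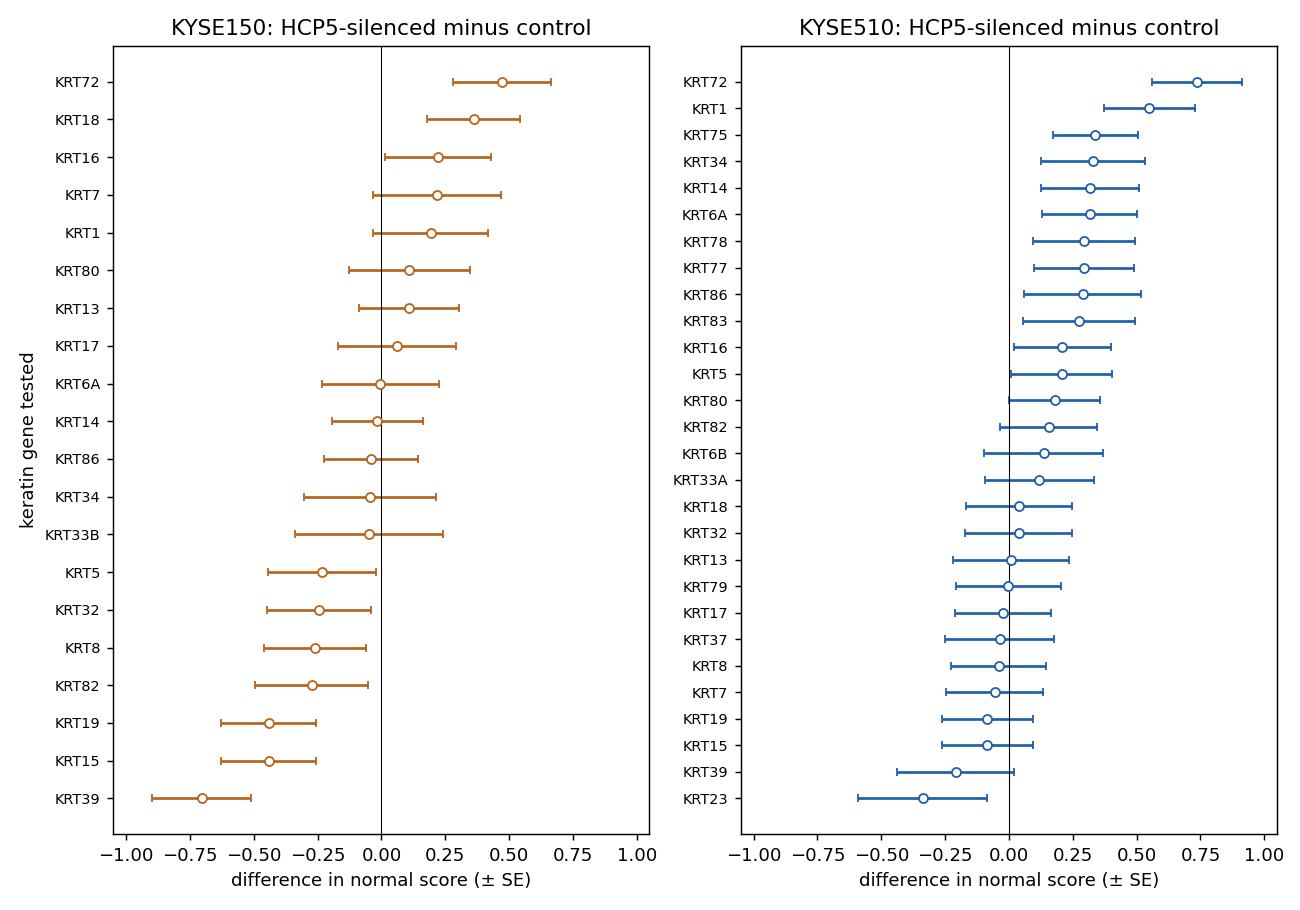
Difference in normal score of the tallest-peak rank, silenced minus control, with bars of 1 SE, for the 20 keratins tested in KYSE150 (left) and the 28 tested in KYSE510 (right). All points are open because no keratin had a limma adjusted p under 0.05; KRT72 lies highest in both lines, at 0.472 and 0.737, and KRT39 lowest in KYSE150 at -0.704.

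The difference between the lines in the effect of silencing was tested as an interaction. No keratin of 29 tested was called, and 0% of all 17489 genes were, with 0 keratins and 927 genes (5.3%) at an unadjusted limma p under 0.05. The 3 keratins with the smallest p were KRT75 (0.487 ± 0.254, SE), KRT39 (0.495 ± 0.314) and KRT5 (0.440 ± 0.296), each with a limma adjusted p of 0.943. KRT75 and KRT39 changed sign with another window around the gene, to -0.504 at 10 kb and -0.544 at the span alone. For KRT5 the KYSE150 silenced libraries stood at 9, 12 and 9 against controls of 17, 17 and 10, and the KYSE510 silenced libraries at 11, 10 and 20 against 12, 12 and 9, and the groups overlapped in both lines.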

How the data were processed

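ATAC-seq peak tables of 12 libraries, 3 in each of 4 groups taken from the labels, were used as deposited, 1 table a library. The submitters' processing notes list Trimmomatic 0.36, Bowtie2 2.2.6, Picard 2.8.2, MACS2 2.1.1 and bedtools 2.25.0 and the build GRCh38, without their roles. Per the file headers, the authors gave each peak a pileup, a signal in whole numbers at 1 position that is not a count of reads and is not normalised between libraries. Per the file headers, fold enrichment is a ratio over local background, and the authors gave each p-value and FDR untransformed. No p-value in the tables exceeded 0.00987. The deposited lengths were at least 200 bp. The lowest deposited height was 1 in KYSE150 and 2 in KYSE510, and the calling settings of each line are not given in the sources used here.

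Peaks on 24 chromosomes with a height of 3 or more were assigned to every protein-coding gene within 3 kb of its RefSeq span. A peak may thus count for several genes. The tallest height per gene, or 0, was ranked over 20037 genes within each library. A percentile is that rank in percent, and genes without a peak share the lowest. Normal scores of the ranks were compared by limma 3.58.1 (lmFit, eBayes, Benjamini-Hochberg) in R 4.3.3, for genes with a peak in at least 3 libraries of the fit, at an adjusted p under 0.05. The lines were fitted apart for silencing and together for the line difference and the interaction. Regions were peaks merged at an overlap of at least 1 bp, and those called in all 6 libraries of a line were tested the same way. The test was tried on simulated data. Tables were made with Python 3.11.15, numpy 2.4.6 and pandas 2.3.3, and figures with matplotlib 3.10.9.

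The members, lists and tests were chosen with earlier results of these data known. Named keratins were 14 chains of the oesophagus and skin, the called keratins of each contrast (up to 12 by p, or the 3 smallest p), hair shaft keratins with a peak in all 6 libraries of a line, the 3 highest percentiles in each line, keratins without a peak, and the 2 regions with the smallest p in each line. KRT15 and KRT19 tie. KRT33A, the partner genes named and the 4 regions found only in KYSE510 were chosen after their values were seen. The alternatives were other windows, height or FDR minimums, measures, peak assignment, filters, a replicate block and leaving out each library. Proteins were not used here.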

Additional observations from a re-analysis of the deposited data

How the results depend on the processing

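Over 25 alternatives or fewer per value, the named keratins gave 502 values of the line difference, of which 419 kept their direction and side of the threshold, 65 lost the call, 8 gained one and 10 turned sign. The silencing and interaction values numbered 175, of which 168 kept both, 2 gained a call and 5 turned sign. The cause of each change was not tested, except that some settings keep fewer genes or libraries.

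The number of keratins called between the lines, 16, became 6 with the span alone, 6 with a height of 10 or more, 8 with an FDR of at most 1e-05, 8 with control libraries only and 33 with no filter. With no filter, 15 of the 16 were shared, and keratins without any peak passed because their tied lowest rank stood higher in KYSE150. On either log2 scale 12 were called, all among the 16. Leaving out 1 library gave 12 to 17. The genes called between the lines fell from 7186 to 4548 with control libraries only. The genes called for silencing, 0 in each line, became 3 in KYSE150 and 2 in KYSE510 with the span alone, 1 and 3 with nearest-gene assignment, 85 and 51 on log2(height + 1) and 88 and 52 on log2(height + 0.5). Ranking peak numbers called 61 genes in KYSE150. KRT39, the 1 keratin called in KYSE150, was called with peak numbers and on log2(height + 0.5). The interaction called 2 genes with the span alone, 65 and 78 on the log2 scales, 5 with no filter and 0 to 1 without 1 library.

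Epithelial keratins with a peak in all 6 libraries, 11 in KYSE150 and 12 in KYSE510, became 3 and 7 with a height of 10 or more, 4 and 7 with an FDR of at most 1e-05 and 4 and 6 with the span alone. Hair shaft keratins, 2 and 6, became 1 and 2 with a height of 5 or more, 0 and 1 with 10 or more and 1 and 1 with an FDR of at most 1e-05.

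Values of the line difference that turned sign with ranked peak numbers were KRT72 (-0.336), KRT86 (-0.273), KRT34 (-0.0505), KRT15 (-0.382), KRT19 (-0.169) and KRT16 (-0.254). KRT16 turned to -0.555 with fold enrichment. KRT75 turned to -0.0148 with the span alone, KRT13 to 0.247 with 10 kb and KRT15 to -0.432 with nearest-gene assignment. For silencing in KYSE150, ranked peak numbers gave -0.149 at KRT72, 0.0477 at KRT15 and 0.0424 at KRT19. The interaction turned to -0.504 at KRT75 with 10 kb and to -0.544 at KRT39 with the span alone.

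Same-numbered control and silenced libraries correlated at 0.0178 to 0.0330 in KYSE150 and 0.0318 to 0.0850 in KYSE510, on scores less their group mean. Differently numbered libraries correlated at -0.0361 to 0.0036 in KYSE150 and -0.0685 to -0.0094 in KYSE510. Because the group mean was taken off, the values of differently numbered libraries follow largely from those of same-numbered ones. They are thus no separate comparison. The same-numbered values were small and positive in both lines, and the main tests did not pair the libraries. With the replicate number as a block, 0 genes were called for silencing in either line and 0 for the interaction, and 7169 genes and 15 keratins between the lines, KRT18 being lost. Peak heights are small whole numbers, the depth is unknown, and many keratins stand at or just above the minimum of 3. A difference of 1 or 2 in height is not resolved there, and a gene at 0 may have an open site below the minimum.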
